A study of Homo sapiens with 12 samples.

Results

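The respiratory chain of the mitochondrial inner membrane was followed in 22Rv1 cells, an established human prostate carcinoma line, through the genes of its 5 complexes. All nuclear genes on the array whose symbol marks a subunit of complex I, II, III, IV or V were taken, that is, symbols starting with NDUFA, NDUFB, NDUFC, NDUFS, NDUFV, UQCR or ATP5, symbols starting with COX and a digit of a structural subunit, and SDHA, SDHC, SDHD and CYC1, with the NDUFAF assembly factors left out. This gave 83 of 19775 genes, named by 158 of the 54675 probe sets. Of these genes, 78 encode protein and 5 are antisense, divergent or pseudogene transcripts (NDUFV1-DT, NDUFB2-AS1, NDUFV2-AS1, ATP5MC2P1 and COX6A1P1). A further 15 probe sets pair a matching symbol with that of another gene and were kept apart. UQCRH, NDUFS5, NDUFS8 and NDUFC2 were named only on such probe sets, so they are in no count by complex. The mitochondrially encoded subunits, SDHB, UQCRFS1 and NDUFA4 were not analysed here.

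The 22Rv1 cells were grown in medium with serum. They fall into 4 groups of 3 Affymetrix U133 Plus 2.0 arrays: vehicle, and 4 h, 6 h and 16 h with a small compound, which the series title describes as acting against ONECUT2, a homeodomain transcription factor. No time is given for vehicle, the compound's dose and structure are not given in the sources used here, and a code element present in the other array titles is missing from those at 16 h, so compound, time in culture and that element cannot be told apart. Nothing in the labels says that replicates were separate cultures, so the p-values cover only array-to-array spread, and that spread may be technical.

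The respiratory chain carries electrons from NADH, through complex I, and from succinate, through complex II, to ubiquinone. Complex III passes them to cytochrome c and complex IV to oxygen. Complexes I, III and IV pump protons across the inner membrane as they do so, and complex V, the ATP synthase, lets the protons back to make ATP. Most subunits are encoded in the nucleus, and their genes are known targets of the nuclear respiratory factors NRF1 and GABP. Prostate carcinoma cells in general use this pathway more than the zinc-rich secretory cells of the normal gland.

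No respiratory chain gene passed the test at 4 h or 6 h, while 38 of 78 tested did at 16 h, 37 of them lower and 1, COX7A2L, higher than with vehicle. The probe set with the highest mean, called the brightest here, stood for each gene, and a gene was tested where that mean reached 2.11 on the log2 scale, the median of all probe sets. A change was called at an adjusted p below 0.05 (limma, Benjamini-Hochberg over 12635 genes), and rose, fell or changed are used for calls only. At 16 h the array as a whole was shifted too: 42.8% of all tested genes were called, 16.8% lower and 26% higher. Respiratory chain genes thus had a larger share of falls, 47.4%, and a smaller share of rises, 1.28%, than all tested genes. The falls were small, from 1.11-fold to 1.46-fold. In 36 of the 37 genes every 16 h array lay below every vehicle array, but these genes had been picked by their calls. Over all tested members, called or not, 46 of 78 (59.0%) did not overlap vehicle at 16 h, against 51.5% of all tested genes. By direction, 42 of the 78 members lay wholly below vehicle, where 2647 of 12635 tested genes did. In these bulk samples, a lower level in every cell and a smaller share of cells with a high level cannot be told apart.

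The complexes differed in how many members fell at 16 h. Complex V had 12 of 17 tested genes lower, with a median log2 change of -0.23, and complex III had 5 of 7 lower, with a median of -0.20. Complex I had 14 of 33 lower with a median of -0.15, and complex IV 5 of 14 lower and 1 higher with a median of -0.11. In complex II, 1 of 3 fell and the median was -0.01. Over all tested genes the median was 0.05. These counts and medians describe the genes on these arrays and were not tested against each other.

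**Figure D1:**
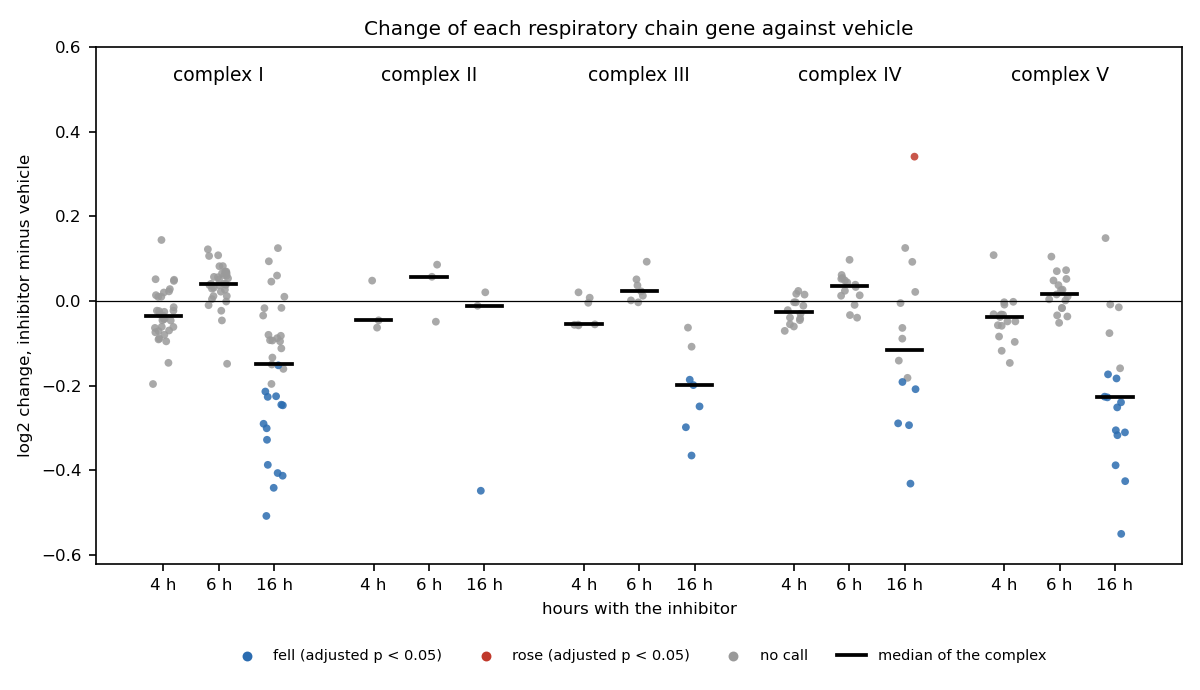
Log2 change against vehicle (y axis) of each tested protein-coding gene of complexes I to V after 4 h, 6 h and 16 h (x axis), with 1 point per gene, jittered sideways, and a black line at the median of the complex. All points at 4 h and 6 h are grey, with no call, and the 16 h points of complexes III and V lie mostly in blue below 0, around medians of -0.20 and -0.23.

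The promoters of these genes were read to show what the members that fell together carry near their start. RefSeq promoter windows of 300 bases, 250 before the annotated start and 50 from it (GRCh38.p14), were matched for 66 of the 78 protein-coding genes. Shown here are the gene of each complex with the largest fall among those matched, and COX7A2L, the one that rose. Capitals mark matches to the NRF1 motif or to the GABP core ccggaag on either strand, and everything else is in lower case, 5′ to 3′ on the gene's strand. The windows are chr19:19515975-19516274 (plus strand) for NDUFA13, chr5:218070-218369 (plus) for SDHA, chr22:29767119-29767418 (plus) for UQCR10, chr11:63974370-63974669 (plus) for COX8A, chr17:48892537-48892836 (plus) for ATP5MC1 and chr2:42361168-42361467 (minus strand) for COX7A2L.
NDUFA13: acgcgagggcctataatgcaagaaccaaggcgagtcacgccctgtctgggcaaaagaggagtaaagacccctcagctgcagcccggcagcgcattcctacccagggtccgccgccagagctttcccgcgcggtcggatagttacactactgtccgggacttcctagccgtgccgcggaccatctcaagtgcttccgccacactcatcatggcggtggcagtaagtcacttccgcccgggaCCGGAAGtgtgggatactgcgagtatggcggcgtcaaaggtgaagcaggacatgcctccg
SDHA: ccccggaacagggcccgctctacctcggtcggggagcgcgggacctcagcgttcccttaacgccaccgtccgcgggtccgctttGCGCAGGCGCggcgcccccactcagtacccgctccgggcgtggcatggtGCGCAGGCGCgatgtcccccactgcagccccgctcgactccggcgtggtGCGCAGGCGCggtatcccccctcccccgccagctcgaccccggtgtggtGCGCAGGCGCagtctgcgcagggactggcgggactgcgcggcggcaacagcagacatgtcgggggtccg
UQCR10: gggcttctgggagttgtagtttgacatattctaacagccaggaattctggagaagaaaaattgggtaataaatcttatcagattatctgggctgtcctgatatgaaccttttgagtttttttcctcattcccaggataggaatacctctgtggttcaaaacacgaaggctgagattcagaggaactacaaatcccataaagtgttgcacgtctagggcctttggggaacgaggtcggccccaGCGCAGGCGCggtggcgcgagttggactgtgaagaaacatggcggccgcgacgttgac
COX8A: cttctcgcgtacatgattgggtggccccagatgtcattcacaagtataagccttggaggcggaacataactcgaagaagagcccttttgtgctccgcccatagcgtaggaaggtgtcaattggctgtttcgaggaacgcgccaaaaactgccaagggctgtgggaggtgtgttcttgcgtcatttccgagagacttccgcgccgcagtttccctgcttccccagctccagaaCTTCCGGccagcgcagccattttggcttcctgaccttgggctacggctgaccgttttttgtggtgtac
ATP5MC1: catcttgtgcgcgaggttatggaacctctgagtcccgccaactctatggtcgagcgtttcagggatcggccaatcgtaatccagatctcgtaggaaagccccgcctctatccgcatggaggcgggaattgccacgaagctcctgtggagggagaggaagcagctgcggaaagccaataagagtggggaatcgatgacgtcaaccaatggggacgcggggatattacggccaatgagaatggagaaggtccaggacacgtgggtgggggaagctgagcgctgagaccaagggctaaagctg
COX7A2L: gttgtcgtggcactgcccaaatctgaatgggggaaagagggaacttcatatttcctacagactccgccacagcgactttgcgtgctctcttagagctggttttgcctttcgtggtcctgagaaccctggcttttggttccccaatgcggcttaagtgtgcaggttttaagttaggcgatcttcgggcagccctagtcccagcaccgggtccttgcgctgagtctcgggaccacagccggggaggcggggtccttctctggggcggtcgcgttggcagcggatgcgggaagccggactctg

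Counted from 1 at the first base of each window, SDHA held 4 NRF1 matches, starting at bases 85, 134, 183 and 232, and UQCR10 held 1, at base 243. NDUFA13 had a GABP core at base 241 on the plus strand and COX8A had one at base 233 on the minus strand. The ATP5MC1 and COX7A2L windows held neither. The NRF1 motif was present in 16 of the 66 windows (24.2%), against 11.9% of the windows of all tested genes and 6.28% of all windows in the table. It was present in 8 of 33 members that fell (24.2%) and in 7 of 30 with no call (23.3%). The GABP core, added after the data had been seen, was present in 18 of 66 (27.3%), against 19.1% and 10.7%, with 13 of 33 in members that fell and 5 of 30 in those with no call. Only 3 windows held both motifs and in none did their matches overlap. A match describes the letters of the window and is not a bound site.

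Complex I, which oxidises NADH, has a peripheral arm in the matrix and an arm in the membrane. In the peripheral arm 5 of 14 tested genes fell and none rose. NDUFS1 encodes the largest subunit, which holds iron-sulfur clusters, and its brightest probe set read 9.82, 9.70 and 9.77 on the vehicle arrays, 9.66, 9.56 and 9.62 at 4 h, 9.68, 9.71 and 9.45 at 6 h and 9.45, 9.41 and 9.44 at 16 h. All 3 arrays at 16 h lay below all vehicle arrays, while the lowest 6 h array was only just above the highest 16 h array (log2 change -0.33 ± 0.07 SE, adjusted p = 0.00379). NDUFS1 did not pass the test of 16 h against 6 h (log2 change -0.18 ± 0.07 SE, adjusted p = 0.0698). NDUFV1, the flavin-binding subunit that takes electrons from NADH, was 8.62 ± 0.06 at 16 h and 8.83 ± 0.04 with vehicle (SD, n = 3 each; log2 change -0.21 ± 0.06 SE, adjusted p = 0.013).

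The accessory subunit gene NDUFA2 had the largest fall of the peripheral arm, 1.36-fold lower at 16 h. It read 10.35, 10.35 and 10.35 on the vehicle arrays, 10.33, 10.24 and 10.30 at 4 h, 10.37, 10.43 and 10.43 at 6 h and 10.09, 9.91 and 9.73 at 16 h (log2 change -0.44 ± 0.08 SE, adjusted p = 0.00102). The 3 vehicle arrays were nearly identical and the 16 h arrays were spread but all lower. NDUFA7 (log2 change -0.29, adjusted p = 0.00752) and NDUFA6 (log2 change -0.22, adjusted p = 0.0152) fell as well. The core gene NDUFV2 and the accessory gene NDUFA12 had no call, with log2 changes of 0.06 and 0.01.

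In the membrane arm 9 of 18 tested genes fell and none rose. NDUFA13, also known as GRIM19, read 10.60, 10.51 and 10.44 on the vehicle arrays, 10.44, 10.38 and 10.46 at 4 h, 10.60, 10.63 and 10.56 at 6 h and 10.07, 9.80 and 10.15 at 16 h. The 6 h arrays lay in or just above the vehicle range and the 16 h arrays stood apart below it, 1.42-fold lower on average (log2 change -0.51 ± 0.09 SE, adjusted p = 0.000575). NDUFB10, an accessory subunit of the distal part of this arm, had the lowest adjusted p of all members. Its arrays read 10.80, 10.76 and 10.77 on the vehicle arrays, 10.73, 10.78 and 10.76 at 4 h, 10.82, 10.84 and 10.85 at 6 h and 10.31, 10.43 and 10.37 at 16 h (log2 change -0.41 ± 0.05 SE, adjusted p = 0.000122). NDUFB1 and NDUFA1, small single-pass subunits, fell by 0.41 and 0.39 on the log2 scale (adjusted p = 0.00168 and 0.00156, limma).

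Among the other membrane arm genes, NDUFB7, NDUFA3, NDUFB6, NDUFB3 and NDUFC1 fell, by 1.11-fold to 1.23-fold. NDUFB4, NDUFB5 and NDUFB8 stayed within 0.05 of vehicle on the log2 scale, with no call. NDUFAB1, the acyl carrier protein found in both arms, had a log2 change of -0.11 and no call (adjusted p = 0.118). NDUFC1 was the call nearest to the threshold (log2 change -0.15 ± 0.06 SE, adjusted p = 0.0498), and it was lost in 13 of 16 alternative analyses. The call of NDUFB3 was lost in 4 of 16.

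Complex II is both a citric acid cycle enzyme and an entry point of electrons, and its subunits did not move together. SDHA, the flavoprotein that oxidises succinate, read 8.53, 8.44 and 8.48 on the vehicle arrays, 8.48, 8.44 and 8.40 at 4 h, 8.65, 8.47 and 8.59 at 6 h and 8.18, 7.83 and 8.10 at 16 h. The 16 h arrays were the lowest of the 12, 1.36-fold below vehicle on average (log2 change -0.45 ± 0.09 SE, adjusted p = 0.0015), and the 6 h arrays overlapped vehicle. The SDHA probe set is of the _x_at class, which can also bind related transcripts. SDHA has transcribed pseudogene copies, so its fall is uncertain in its source. Probe sets of class _s_at or _x_at, which can match more than 1 transcript, were not limited to SDHA. They stood for 22 of the 37 members that fell at 16 h, and for 41 of all 78 tested members. The membrane anchors had no call on their brightest probe sets: SDHD was 11.20 ± 0.01 at 16 h and 11.21 ± 0.06 with vehicle and SDHC 9.47 ± 0.07 at 16 h and 9.45 ± 0.05 with vehicle (log2 changes -0.01 and 0.02, SD, n = 3 each). One second probe set of SDHC fell by 0.59.

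Complex III passes electrons from ubiquinol to cytochrome c. CYC1, which encodes its cytochrome c1, read 11.09, 11.16 and 11.12 on the vehicle arrays, 11.08, 11.00 and 11.12 at 4 h, 11.13, 11.09 and 11.15 at 6 h and 10.95, 10.81 and 10.85 at 16 h. All 16 h arrays were below all others (log2 change -0.25 ± 0.06 SE, adjusted p = 0.00585). UQCRC1, a core protein of the matrix side, was 9.61 ± 0.04 at 16 h and 9.91 ± 0.04 with vehicle (log2 change -0.30 ± 0.06 SE, adjusted p = 0.00112), whereas its partner UQCRC2 was 10.85 ± 0.04 at 16 h and 10.91 ± 0.04 with vehicle and had no call on its brightest probe set (log2 change -0.06, adjusted p = 0.37).

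Of the 4 small subunits of complex III that were tested, 3 fell. UQCR10 had the largest fall, 1.29-fold, and read 12.10, 12.11 and 12.13 on the vehicle arrays, 12.03, 12.04 and 12.10 at 4 h, 12.16, 12.18 and 12.16 at 6 h and 11.85, 11.73 and 11.67 at 16 h. The vehicle arrays spanned only 12.10 to 12.13 and no 16 h array came near them (log2 change -0.36 ± 0.06 SE, adjusted p = 0.000438). A second, dimmer probe set of UQCR10 had a log2 change of -0.08 and no call. UQCR11 and UQCRQ, which contribute to the same dimer, had log2 changes of -0.20 and -0.19 with adjusted p = 0.0408 and 0.0289 (limma). These calls were lost in 6 and 7 of 16 alternative analyses. UQCRB had no call, at -0.11.

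Complex IV, cytochrome c oxidase, reduces oxygen. Of its 10 tested common subunit genes 5 fell and none rose. COX8A, a small membrane subunit, read 11.47, 11.33 and 11.37 on the vehicle arrays, 11.36, 11.34 and 11.41 at 4 h, 11.44, 11.47 and 11.43 at 6 h and 11.10, 10.91 and 10.88 at 16 h. The 16 h arrays were 1.35-fold below vehicle with no overlap (log2 change -0.43 ± 0.07 SE, adjusted p = 0.000438). COX6B1, COX7B, COX7C and COX7A2 fell by 0.29, 0.29, 0.21 and 0.19 on the log2 scale, and the call of COX7A2 was lost in 7 of 16 alternative analyses. The other 5, COX4I1, COX5A, COX5B, COX6A1 and COX6C, had no call on their brightest probe sets. COX4I1, the largest nuclear-encoded subunit, was 12.29 ± 0.08 at 16 h and 12.36 ± 0.02 with vehicle, COX5A was 11.93 ± 0.02 at 16 h and 11.83 ± 0.04 with vehicle, and COX5B was 11.29 ± 0.13 at 16 h and 11.38 ± 0.01 with vehicle (SD, n = 3 each).

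COX7A2L, known for joining complexes III and IV into supercomplexes, was the one member that rose. Its arrays read 8.10, 8.23 and 8.22 on the vehicle arrays, 8.18, 8.12 and 8.24 at 4 h, 8.03, 8.21 and 8.19 at 6 h and 8.49, 8.41 and 8.67 at 16 h. Every 16 h array was above every other array, with a mean 1.27-fold higher than vehicle (log2 change 0.34 ± 0.08 SE, adjusted p = 0.00479). It was also higher at 16 h than at 6 h (log2 change 0.38 ± 0.08 SE, adjusted p = 0.00258). COX7A2L was called in all 16 alternative analyses.

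The tissue or condition isoforms of complex IV carried little signal. COX7A1, the muscle isoform, COX7B2 and COX8C did not exceed the brightest unspiked control probe set on any of the 12 arrays and were not tested. COX4I2, known as a hypoxia and lung isoform, COX6A2, of heart and muscle, and COX6B2, of testis, were near those controls, with log2 changes at 16 h of -0.14, -0.18 and 0.13 and no call. Signal of this size carries little information. The antisense, divergent and pseudogene members were also dim, and none of the 4 tested passed.

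**Figure D2:**
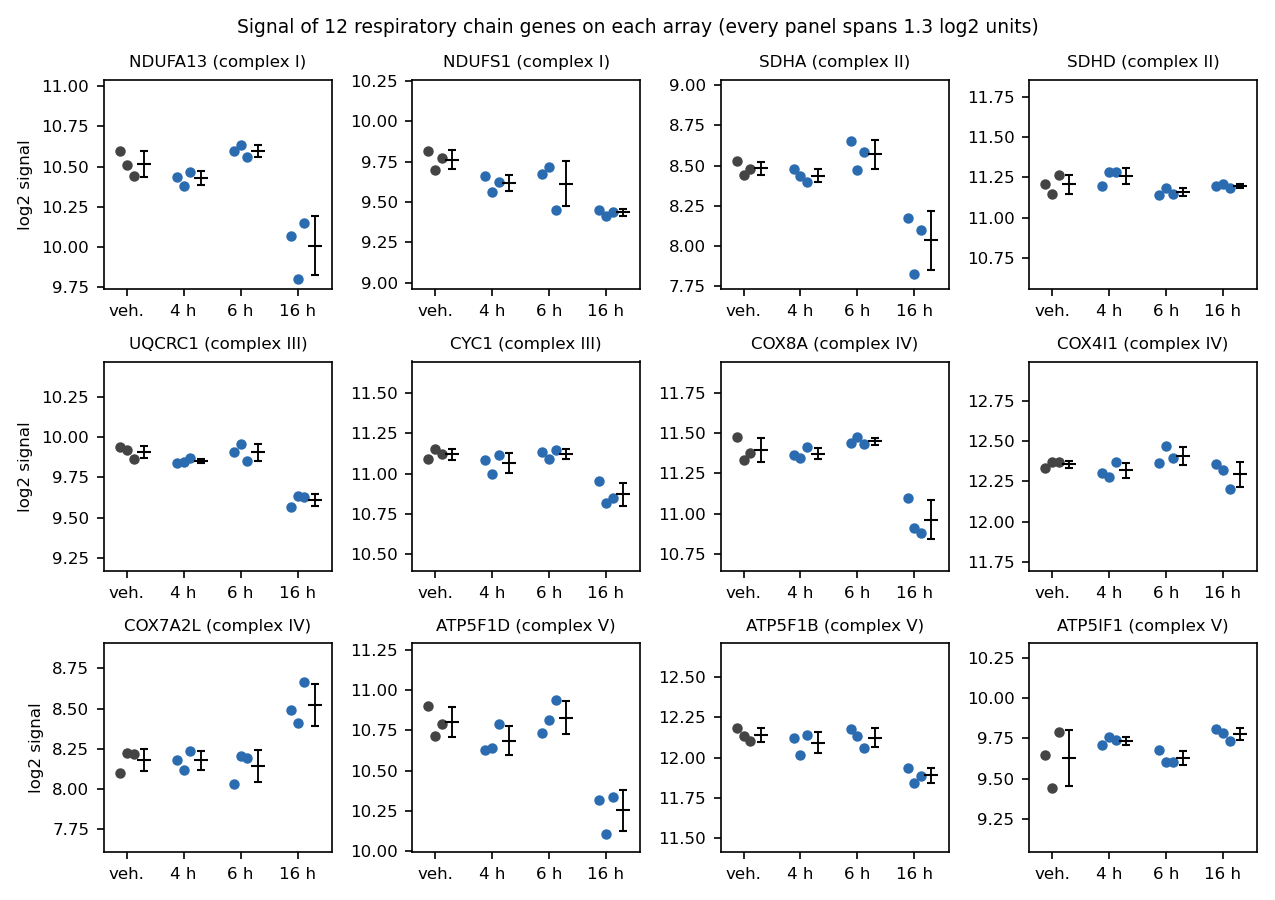
Log2 signal (y axis) of 12 respiratory chain genes on each of the 3 arrays of vehicle, 4 h, 6 h and 16 h (x axis); bars beside the points give the mean and SD. The 16 h points of NDUFA13, SDHA, COX8A and ATP5F1D lie below every other point, those of COX7A2L above, and those of SDHD among the others.

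Complex V, the ATP synthase, had falls in its head, its membrane part and its stalk. In its catalytic F1 head, ATP5F1D, the delta subunit of the central stalk, had the largest fall of all members, 1.46-fold. It read 10.90, 10.72 and 10.79 on the vehicle arrays, 10.63, 10.64 and 10.79 at 4 h, 10.73, 10.82 and 10.94 at 6 h and 10.32, 10.10 and 10.34 at 16 h. The groups at 4 h and 6 h overlapped vehicle and the 16 h arrays did not (log2 change -0.55 ± 0.09 SE, adjusted p = 0.000345). ATP5F1B, the catalytic beta subunit, was 11.89 ± 0.05 at 16 h and 12.14 ± 0.04 with vehicle (log2 change -0.25 ± 0.06 SE, adjusted p = 0.0061). Its partner ATP5F1A, the alpha subunit, had a log2 change of -0.16 that missed the threshold (adjusted p = 0.0814), and the gamma subunit ATP5F1C had -0.01. ATP5F1E, the epsilon subunit, had -0.08 and no call.

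In the proton-driven membrane part of complex V all 7 tested genes fell on their brightest probe sets. The 3 genes ATP5MC1, ATP5MC2 and ATP5MC3 encode the same mature c subunit of the rotating ring, and all fell, by 0.43, 0.30 and 0.24 on the log2 scale (adjusted p = 0.000528, 0.00123 and 0.00988, limma). ATP5MC1 read 9.72, 9.69 and 9.62 on the vehicle arrays, 9.59, 9.67 and 9.76 at 4 h, 9.64, 9.74 and 9.66 at 6 h and 9.36, 9.17 and 9.24 at 16 h. Its first 3 groups had means within 0.01 of each other and the 16 h arrays were all lower. The 4 tested membrane accessory genes also fell: ATP5ME and ATP5MG, subunits at which the synthase pairs into dimers, with log2 changes of -0.39 and -0.32, and ATP5MJ and ATP5MK with -0.23 and -0.17. The call of ATP5MK was lost in 7 of 16 alternative analyses and that of ATP5MJ in 3. ATP5MF was too dim on its own probe set to be tested.

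In the peripheral stalk, which holds the head still, 3 of 4 genes fell. ATP5PO, the subunit that confers oligomycin sensitivity, was 10.79 ± 0.04 at 16 h and 11.10 ± 0.03 with vehicle (log2 change -0.31 ± 0.05 SE, adjusted p = 0.00069). A second, dimmer probe set of ATP5PO had a log2 change of -0.002 and no call. ATP5PF and ATP5PD had log2 changes of -0.23 and -0.18, and ATP5PB, the b subunit, had -0.01 and no call on its brightest probe set, while a dimmer one fell by 0.36. ATP5IF1, the inhibitor that stops the synthase from splitting ATP, read 9.65, 9.44 and 9.79 on the vehicle arrays, 9.71, 9.76 and 9.74 at 4 h, 9.68, 9.61 and 9.60 at 6 h and 9.81, 9.78 and 9.73 at 16 h. Its 16 h arrays lay within the vehicle range or just above it, and the log2 change of 0.15 was not called (adjusted p = 0.156).

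**Figure D3:**
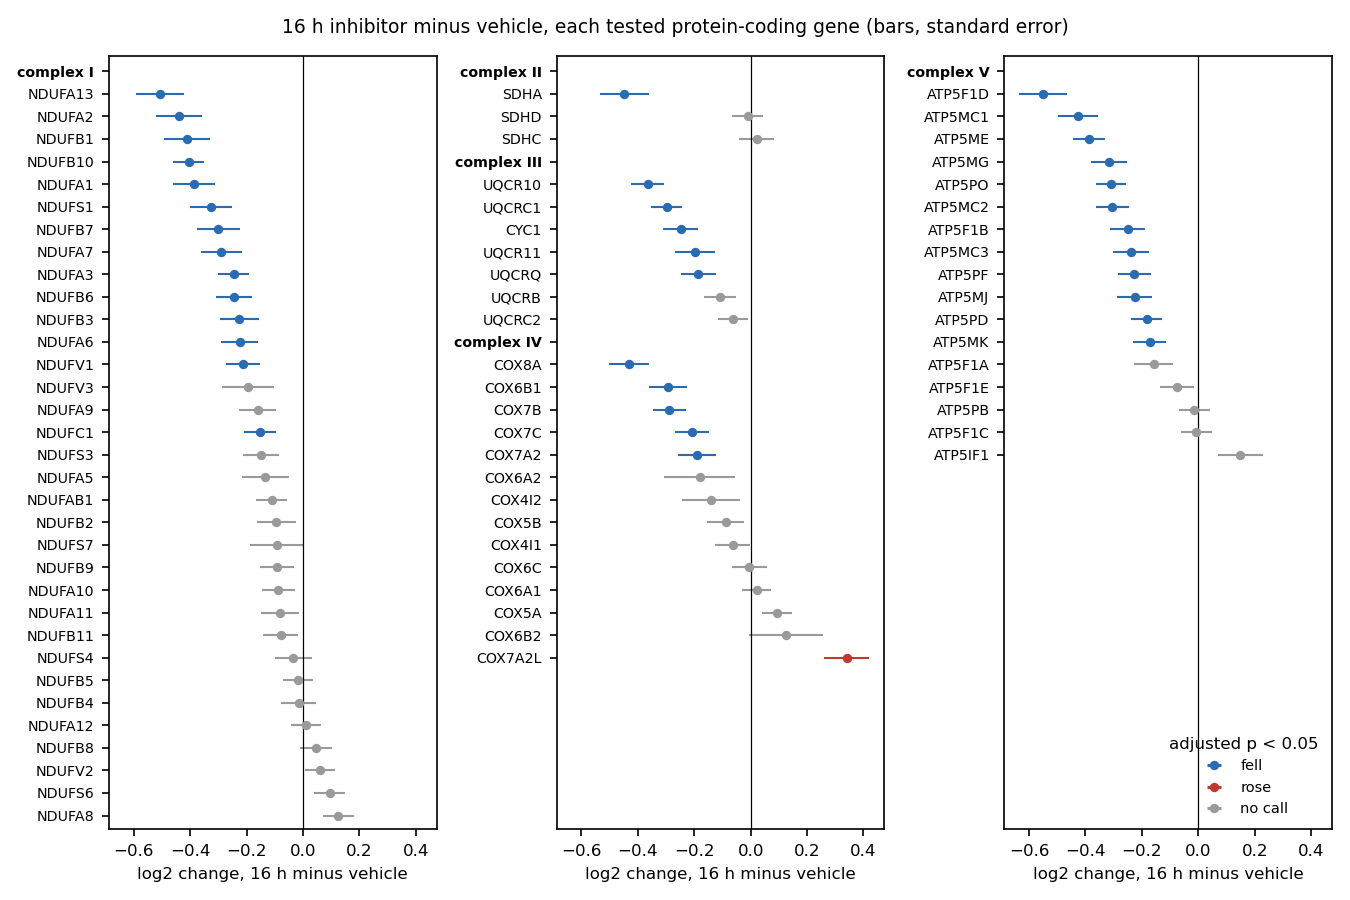
Log2 change at 16 h against vehicle (x axis) of each tested protein-coding gene, grouped by complex and ordered within it, with bars for the standard error. Blue genes fell, red rose and grey had no call; ATP5F1D at -0.55 and COX7A2L at 0.34 mark the ends of the range.

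Before 16 h the changes were small and no gene was called. At 4 h, 0 of 78 members passed, where 0.459% of all tested genes did, and at 6 h again 0 of 78, where 0.0317% of all tested genes did. At an unadjusted p below 0.05 there were 2 of 78 members at 4 h and 0 at 6 h, where 1366 and 1039 of 12635 tested genes were. The 4 lowest p at 4 h belonged to NDUFA7 (log2 change -0.20 ± 0.07 SE, adjusted p = 0.354), ATP5ME (log2 change -0.15), NDUFS1 (-0.15) and NDUFA5 (0.14). At 6 h they belonged to NDUFS6 (log2 change 0.12 ± 0.06 SE, adjusted p = 0.609), NDUFS1 (-0.15), NDUFA3 (0.11) and the antisense transcript NDUFB2-AS1 (0.26).

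The signs of these small changes were uneven all the same. At 4 h, 59 of 78 members lay below vehicle, with a median log2 change of -0.04, where 49.1% of all tested genes lay below. At 6 h only 17 of 78 lay below, with a median of 0.04, where 45.2% of all tested genes did. Both counts use the same vehicle arrays. Set directly against each other, 6 h was above 4 h for 67 of 78 members (median 0.07, against 0.01 over all tested genes), and no member passed that test, where 0.095% of all tested genes did. The arrays bear this out one by one only in part: the median over members, relative to the vehicle mean, was -0.04, -0.05 and 0.00 on the 4 h arrays and 0.02, 0.04 and 0.04 on the 6 h arrays, against -0.12, -0.20 and -0.19 on the 16 h arrays. Over all tested genes this median was -0.02, 0.01 and 0.02 on the 4 h arrays and -0.03, 0.03 and 0.03 on the 6 h arrays. On the 16 h arrays it was 0.02, 0.05 and 0.07. The vehicle arrays themselves spanned -0.01 to 0.01 for the members. These values lie near 0 by construction, because each gene is set against the mean of the same vehicle arrays, so they do not measure array-to-array spread.

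The direct comparisons place the falls between 6 h and 16 h. At 16 h, 40 members were lower and 1 higher than at 6 h, where 42.7% of all tested genes were called, 17.6% lower and 25.1% higher. Against 4 h, 32 were lower and 2 higher, COX7A2L and the complex I gene NDUFA8, where 40.9% of all tested genes were called, 16.1% lower and 24.8% higher. Without the third 4 h array the 34 calls against 4 h became 21. In all, 31 members fell at 16 h against each of vehicle, 4 h and 6 h. These comparisons share the 16 h arrays, so their calls are not independent. The share of all tested genes that fell in each of them was not computed. NDUFS3, NDUFV3, NDUFA9 and NDUFAB1, all of complex I, fell against 6 h without being called against vehicle, with log2 changes from 6 h of -0.26, -0.25, -0.23 and -0.15. NDUFS1 was the exception in the other direction, with a change against vehicle that had in part been present at 4 h and 6 h, though with no call there.

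Many members have more than 1 probe set, and these did not always move alike. In the fit over 27306 probe sets, 25 of the 158 member probe sets were below the filter, and of the rest 53 fell and 8 rose at 16 h, where 39.7% of all probe sets were called, 16.7% lower and 23% higher. At 4 h and 6 h 0 member probe sets passed, where 0.293% and 0.681% of all probe sets did. The brightest probe sets gave 33 falls and 1 rise there, with p-values adjusted over more tests than in the fit over genes. The other 55, termed second probe sets, gave 20 falls and 7 rises, 36.4% and 12.7%, where second probe sets of all genes gave 19.9% and 20.7%. In 3 genes, NDUFA7, NDUFB6 and NDUFB8, probe sets were called in opposite directions.

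NDUFB6, an accessory gene of the membrane arm, shows the size of such a split. Its brightest probe set read 10.95, 10.87 and 11.03 on the vehicle arrays, 10.93, 10.99 and 11.00 at 4 h, 11.01, 10.96 and 11.00 at 6 h and 10.78, 10.71 and 10.62 at 16 h, and fell. A second, dim probe set read 2.48, 2.40 and 2.78 on the vehicle arrays, 2.78, 3.15 and 2.69 at 4 h, 2.41, 3.04 and 2.42 at 6 h and 3.39, 3.99 and 3.76 at 16 h, and rose (log2 change 1.16 ± 0.20 SE, adjusted p = 0.000744). The other second probe sets that rose were of NDUFA5 (0.98), ATP5F1C (0.67), NDUFB4 (0.52), COX4I1 (0.50), NDUFA7 (0.47) and NDUFB8 (0.43). Their mean signals were 2.40 to 5.70 on the log2 scale, where the median over second probe sets of all genes was 3.83. Second probe sets of such signal fell too, as for NDUFA2 (mean 3.07), COX5B (4.16) and UQCR11 (5.67). Where these probe sets lie on their transcripts was not analysed here.

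NDUFS1 had the largest fall on any member probe set. One of its second probe sets read 7.61, 7.38 and 7.74 on the vehicle arrays, 7.30, 7.22 and 7.14 at 4 h, 6.83, 6.94 and 6.98 at 6 h and 5.95, 6.23 and 5.45 at 16 h. The values step down from group to group and no 2 groups overlap (log2 change -1.70 ± 0.16 SE, adjusted p = 1.13e-05), which is a 3.25-fold difference at 16 h. At 6 h the change had not passed the test (log2 change -0.66 ± 0.16 SE, adjusted p = 0.0879). Another had log2 changes of 0.08 at 4 h and 0.14 at 6 h, with no call, and fell at 16 h (log2 change -0.55 ± 0.09 SE, adjusted p = 0.000485).

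Second probe sets also fell where the brightest did not. For COX5B, all 3 second probe sets fell, by 0.40, 0.43 and 0.73, against a change of -0.09 with no call on the brightest. UQCRC2 had a fall of 0.50 on a second probe set, SDHC a fall of 0.59 on one of several, and NDUFB8 a fall of 0.41 on one and a rise on another. NDUFA11 and ATP5PB also had falls on a second probe set, of 0.30 and 0.36. The reverse was seen too, with no call on a second probe set where the brightest fell. Examples are ATP5PO (-0.002), ATP5MG (-0.05, while other second probe sets of it fell), UQCR10 (-0.08) and ATP5MJ (-0.13). In ATP5F1D, NDUFB10 and NDUFA6, among others, both fell. The count of genes that fell therefore depends on the probe set that stands for a gene. Of the 14 tested probe sets with several symbols, 5 fell, 1 rose and 8 had no call, where 16.7% of all probe sets fell and 23% rose. The rise (0.23) and the largest fall (-0.96) were on probe sets labelled PTCD1 and ATP5MF-PTCD1. The other falls were on probe sets that name UQCRH (-0.22), ATP5MF (-0.40), NDUFS8 (-0.41) and NDUFC2 (-0.48). Other probe sets that name NDUFS8 and NDUFC2 had no call.

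**Figure D4:**
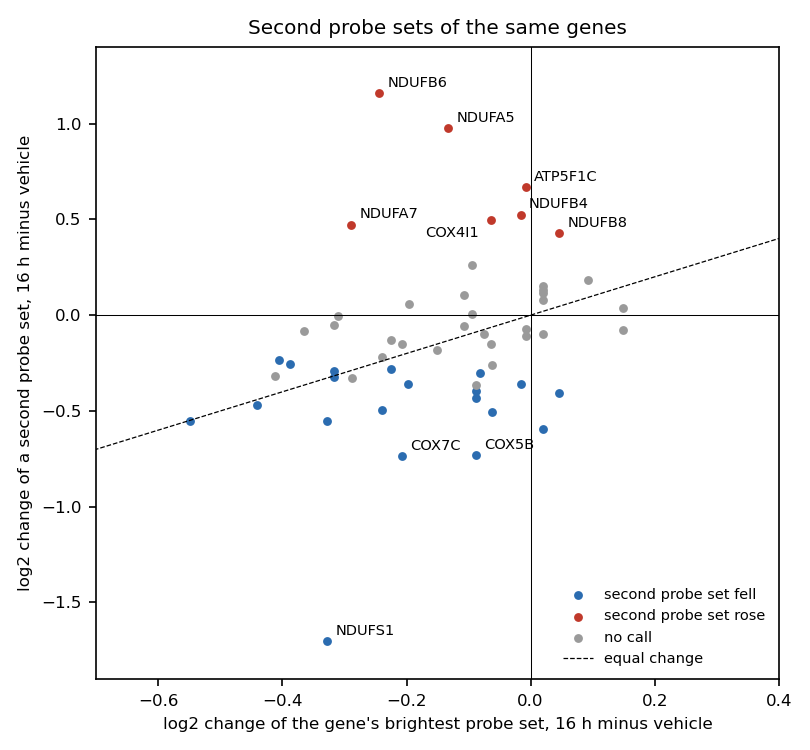
Log2 change at 16 h against vehicle of each second probe set (y axis) against that of the brightest probe set of the same gene (x axis), with a dashed line at equal change. The 7 red points that rose stand above the line, led by NDUFB6 at 1.16, and NDUFS1 at -1.70 stands below it.

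Signal level and RNA quality moved with the groups. Respiratory chain genes are bright on the array, and bright genes fell more often in general: of genes with a mean log2 signal of 10 or more, 27.7% of all tested fell, against 53.8% of the members (28 of 52). Below 10, 16% of all tested genes fell, against 34.6% of the members (9 of 26). This division at 10 was chosen after the data had been seen. The ACTB 3′ to 5′ control difference was 4.09 ± 0.09 at 16 h and 2.80 ± 0.07 with vehicle (SD, n = 3; p = 0.1 in an exact two-sided permutation test, its smallest possible value), with the 5′ signal lower by 1.38 at 16 h. For GAPDH the difference was -0.43 ± 0.04 at 16 h and -0.46 ± 0.02 with vehicle, and the 18S control signal was 11.06 ± 0.10 at 16 h and 9.62 ± 0.29 with vehicle. At 4 h and 6 h that signal was 8.98 ± 0.14 and 8.64 ± 0.19, below vehicle. The part of RNA quality in the falls was not tested.

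The arrays fit their label as an epithelial line. All 6 prostate epithelial markers found (HOXB13, FOXA1, KRT8, KRT18, EPCAM and KLK3) were above the highest unspiked control on all 12 arrays. Of 3 leukocyte markers none was above it on all arrays. Of 3 endothelial markers only PECAM1 was, with VWF and CDH5 below it throughout. Among 5 fibroblast markers COL1A1 and DCN were above it throughout, and the summed linear signal of the list was 69.0 to 81.8 at 16 h and 33.4 to 41.1 with vehicle, with COL1A1 rising and COL3A1 and DCN falling. The part of these markers in the falls was not tested.

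The assembly factors of the complexes had calls in both directions at 16 h, where 16.8% of all tested genes fell and 26% rose. Of 19 complex I assembly factors 4 fell (21.1%) and 2 rose (10.5%), with FOXRED1 at -0.52, NDUFAF3 at -0.44 and NDUFAF7 at 0.44. Of 38 assembly factors of complexes II to V, 9 fell (23.7%) and 7 rose (18.4%). PET100, a complex IV assembly factor, fell (log2 change -0.71 ± 0.09 SE, adjusted p = 5.70e-05), as did COX18, which inserts a mitochondrially made subunit (-0.56), while COX15, needed for heme A (0.57), and the copper chaperone COX17 (0.48) rose. The medians of the assembly lists were 0.01 and -0.01. No test was made of the lists against each other.

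Among 15 tested regulators of these genes 5 rose (33.3%) and 2 fell (13.3%) at 16 h, shares near the 26% and 16.8% of all tested genes. LONP1, the mitochondrial protease, rose (log2 change 0.51 ± 0.08 SE, adjusted p = 0.00037), as did YY1 (0.36). HCFC1, a transcriptional coactivator, fell (log2 change -0.61 ± 0.09 SE, adjusted p = 0.000211) and so did MYC (log2 change -0.52 ± 0.07 SE, adjusted p = 9.32e-05). NRF1 and GABPB1, a partner of GABPA, rose by 0.31 and 0.36; these were named after their values were seen. Of this list MYC and ESRRG were called already at 4 h, MYC lower (log2 change -0.40 ± 0.07 SE, adjusted p = 0.0225) and ESRRG, an orphan nuclear receptor, higher (log2 change 0.71 ± 0.10 SE, adjusted p = 0.0062), and at 6 h neither was called.

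In the pathways that feed the chain, OGDH, the oxoglutarate dehydrogenase of the citric acid cycle, fell 3.03-fold at 16 h (log2 change -1.60 ± 0.08 SE, adjusted p = 6.19e-08). Of 11 citric acid cycle genes 3 fell (27.3%) and none rose, the others that fell being citrate synthase, CS (-0.33), and SUCLG2 (-0.28). Of 11 genes for pyruvate entry 4 rose and 4 fell (36.4% each). Pyruvate dehydrogenase kinases, which switch that enzyme off, moved apart: PDK4 (0.76) and PDK1 (0.68) rose and PDK3 (-0.74) fell. MPC2, of the mitochondrial pyruvate carrier, fell (-0.31). Of 16 genes for electron carriers and coenzyme Q, 3 fell (18.8%) and 2 rose (12.5%), led by COQ9 (-0.63) and COQ6 (-0.40) among the falls and COQ8A (0.70) among the rises. Over all tested genes 26% rose and 16.8% fell, and with 11 to 16 genes a list these counts were not tested against that.

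**Figure D5:**
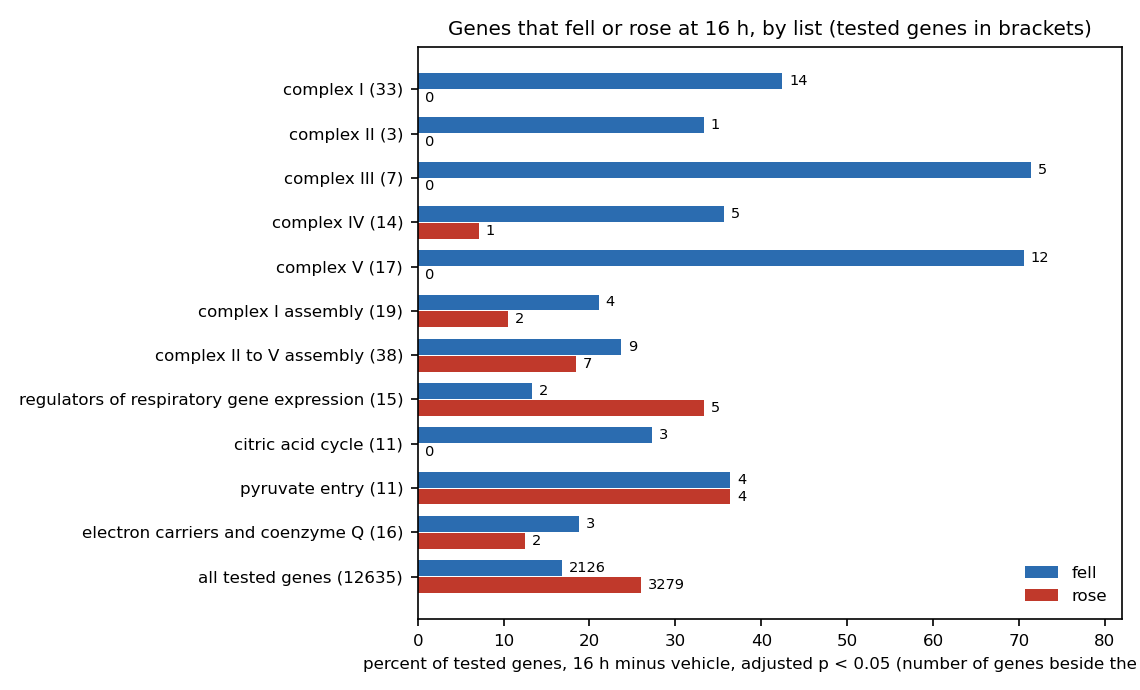
Percent of tested genes that fell (blue) or rose (red) at 16 h against vehicle (x axis) in each complex, each neighbouring list and all tested genes (y axis, number tested in brackets), with the number of genes beside each bar. The 5 complexes have 37 blue calls and 1 red, while all tested genes have more red calls than blue.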

How the data were processed

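RNA of 12 samples of 22Rv1 cells was amplified from the 3′ end and hybridised to Affymetrix arrays, per the labels' protocols. The authors deposited log2 values per probe set. Per the submitters' processing notes these came from GCRMA, a probe-sequence-aware background correction with normalisation between arrays, its version not given in the sources used here. They spanned -0.49 to 13.77, with array medians of 2.10 to 2.15. A change common to most genes would not show after such a normalisation.

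Gene symbols came from the platform annotation, updated through RefSeq. All 12 arrays entered 1 model with 4 groups (lmFit and eBayes of limma 3.58.1, run in R 4.3.3, with 8 residual degrees of freedom), tested two-sided with Benjamini-Hochberg adjustment over 12635 genes or 27306 probe sets. Errors are the model's SE or the SD of 3 arrays. The number of arrays limits the precision. Arrays were not treated as paired by replicate number.

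The members and gene lists were chosen with earlier results of these data known. Genes were named by a rule: up to 4 largest falls and 2 largest rises per complex and role group, the 4 lowest p at 4 h and 6 h, members with opposite probe sets, up to 4 genes of each other list and a set of core subunits and isoforms; others are named for their role. Alternatives were normalisation, centring, filters, the probe set of a gene, the variance prior, array weights, the arrays fitted, the replicate block and leaving out each array.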

Additional observations from a re-analysis of the deposited data

Results flagged for a closer look

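The change of respiratory chain genes differed between treatment times in direct comparisons (limma, Benjamini-Hochberg over 12635 genes). Of the 78 tested, 41 differed between 16 h and 6 h, where 42.7% of all tested genes did. Between 16 h and 4 h 34 differed, where 40.9% of all tested genes did. These comparisons share the 16 h arrays, and the counts were not tested against those shares. By direction, 40 members were lower and 1 higher than at 6 h, where 17.6% and 25.1% of all tested genes were. Against 4 h, 32 were lower and 2 higher, where 16.1% and 24.8% of all tested genes were. The largest differences between 16 h and 6 h in each complex were -0.59 for NDUFA13, -0.53 for SDHA, -0.42 for UQCR10, -0.49 for COX8A and -0.58 for ATP5F1D on the log2 scale. COX7A2L differed by 0.38. NDUFS3 (-0.26), NDUFV3 (-0.25), NDUFA9 (-0.23) and NDUFAB1 (-0.15) differed between these times without a call at 16 h against vehicle.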

How the results depend on the processing

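The count of 38 members called at 16 h against vehicle ranged from 32 to 39 when 1 array was left out, that against 6 h from 34 to 45 and that of probe sets from 51 to 64. Against 4 h it ranged from 21 to 37, the 21 being without the third 4 h array. Counts at 4 h, at 6 h and between them were 0 in all alternatives run, except for 1 probe set lower at 6 h with a trended and robust prior. Of the 38 called genes 21 were called in the same direction in every alternative run for them, and NDUFA7 and NDUFB6 changed sign. With 1 array left out, the medians ranged from -0.161 to -0.119 in complex I, from -0.0405 to 0.00878 in complex II, from -0.269 to -0.166 in complex III, from -0.167 to -0.0855 in complex IV and from -0.275 to -0.185 in complex V. When probe sets of a gene were averaged, the medians of complexes I, II and V were -0.112, -0.0285 and -0.187, and with median centring that of complex II was -0.026. The labels do not say that a replicate number marks a shared origin. Deviations from the group means correlated above 0 in 16 of 18 same-number pairs of arrays, at 0.0939 to 0.235 for number 1, -0.0045 to 0.0627 for number 2 and 0.0273 to 0.137 for number 3, and in 13 of 36 pairs with different numbers, and 6 of 12 arrays were closest to their own number in every other group. With the replicate block 37 members were called at 16 h against vehicle, 34 against 4 h, 42 against 6 h and 62 probe sets at 16 h, and it changed no count by over 1.5 times.

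Signs at 16 h turned mostly with the probe set. With averaged probe sets the log2 change was 0.458 for NDUFB6, 0.422 for NDUFA5, 0.254 for NDUFB4, 0.119 for ATP5F1C, 0.094 for COX4I1, 0.0916 for NDUFA7 and -0.0285 for SDHC. When classes _s_at and _x_at were avoided it was 1.16 for NDUFB6, 0.667 for ATP5F1C, 0.524 for NDUFB4, 0.495 for COX4I1, -0.406 for NDUFB8 and -0.0801 for ATP5IF1, and NDUFS1 had 0.0803 at 4 h and 0.141 at 6 h. Genes near 0 turned elsewhere. With quantile normalisation these were ATP5F1C (0.0241), ATP5PB (0.047) and NDUFB4 (0.0046), and with array weights NDUFB4 (0.00794) and SDHC (-0.00463). With 1 array left out the range was -0.0262 to 0.0193 for ATP5F1C, -0.043 to 0.005 for ATP5PB, -0.0635 to 0.032 for NDUFB4, -0.0189 to 0.0518 for SDHC, -0.0405 to 0.0175 for SDHD and -0.0194 to 0.219 for COX6B2. The cause was not tested. The 3 arrays a group limit the precision, and values near the unspiked controls hold little information.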
